A study of Homo sapiens with 12 samples.

Results

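The mRNA of 8 transcription factors that are enriched in liver was followed in 3 human cell lines of hepatocellular carcinoma (HCC). They were HNF4A, FOXA1, FOXA2, FOXA3, CEBPA, ONECUT1, ONECUT2 and PROX1, chosen by name, and 8 of 8 were found among the 11548 genes of the expression table. Hep3B, Huh7 and MHCC97H cells, all of wild-type genotype per the labels, were left untreated or were given AZD8055, compound #57 or both, with 1 library for each of the 12 combinations of cell line and treatment. AZD8055 blocks the mTOR kinase in both of its complexes and was used at 100 nM. Compound #57 is an allosteric inhibitor of the phosphatase SHP2 and was present at 5 µM in the combination, while its dose as a single drug is not given in the sources used here. Hep3B and Huh7 cells were exposed for 48 h and MHCC97H cells for 24 h, so the effect of the exposure time cannot be told apart from that of the line. No library has a second one of the same line and treatment, so there is no replicate within a line.

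Hepatocytes keep their identity through a small network of transcription factors that bind each other's genes and the genes of secreted liver proteins. FOXA1, FOXA2 and FOXA3 are forkhead factors that open closed chromatin in the early endoderm and keep liver enhancers accessible. HNF4A is a nuclear receptor that holds the hepatocyte programme in the adult liver, and CEBPA is a basic leucine zipper factor of metabolic genes that also restrains proliferation. ONECUT1 and ONECUT2 are cut-homeodomain factors of liver and bile duct development, and PROX1 is a homeodomain protein that is needed for hepatoblast migration and acts on HNF4A as a corepressor.

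The genes lie on different chromosomes for the most part. On hg38 (GENCODE release 44), HNF4A spans chr20:44355699-44432845 on the plus strand and has 17 annotated transcripts. FOXA1 lies at chr14:37589552-37596059, FOXA2 at chr20:22580998-22585455 and CEBPA, a gene of 1 exon, at chr19:33299934-33302534, all on the minus strand. FOXA3 lies on the plus strand at chr19:45863989-45873797. ONECUT1 lies on the minus strand at chr15:52755053-52791078 and ONECUT2 on the plus strand at chr18:57435374-57491298. PROX1 lies on the plus strand at chr1:213983181-214041510. The transcripts HNF4A-AS1 and PROX1-AS1 are annotated on the opposite strand across parts of HNF4A and PROX1. The library kit keeps the strand per the labels, but whether the counting used it is not given in the sources used here, so reads of these antisense partners cannot be told apart from those of the factors.

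HNF4A is transcribed from an upstream promoter (P2) and from a downstream promoter (P1) that is the main one in adult liver. A value per gene adds up both. The 250 bases before the start sites were taken from the RefSeq promoter table (GRCh38.p14), which held 7 windows for 6 of the 8 genes, without FOXA2 and PROX1. The ONECUT1 window precedes the start of the canonical transcript (position 52790336) and so lies inside the span of the gene given above, which includes transcripts that start further upstream. Both HNF4A windows are shown because HNF4A rose in the comparison below and because they hold the letters bound by the ONECUT factors, and the ONECUT1 window because ONECUT1 had the largest fitted change with the combination among the 8 factors. Capitals mark matches to motifs that were searched on both strands, so that the ONECUT letters of the other strand appear as ATTGAT.
HNF4A upstream window, chr20:44355449-44355698, plus strand: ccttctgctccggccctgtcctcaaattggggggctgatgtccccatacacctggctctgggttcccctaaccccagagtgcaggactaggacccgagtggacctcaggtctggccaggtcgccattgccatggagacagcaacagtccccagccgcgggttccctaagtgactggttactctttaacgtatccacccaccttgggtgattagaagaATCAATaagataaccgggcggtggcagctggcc
HNF4A downstream window, chr20:44400989-44401238, plus strand: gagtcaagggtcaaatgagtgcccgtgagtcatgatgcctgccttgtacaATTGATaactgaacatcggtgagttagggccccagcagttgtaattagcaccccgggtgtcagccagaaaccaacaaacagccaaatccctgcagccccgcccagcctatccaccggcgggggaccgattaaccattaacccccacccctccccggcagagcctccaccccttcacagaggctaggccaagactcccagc
ONECUT1 window, chr15:52790337-52790586, minus strand: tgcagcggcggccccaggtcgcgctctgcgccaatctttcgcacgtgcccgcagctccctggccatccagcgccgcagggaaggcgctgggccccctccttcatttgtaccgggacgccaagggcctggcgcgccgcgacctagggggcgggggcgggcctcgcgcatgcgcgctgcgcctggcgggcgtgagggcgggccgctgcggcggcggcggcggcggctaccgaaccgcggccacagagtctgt
The ONECUT letters ATCAAT began 33 bases before the start in the upstream HNF4A window and 200 bases before it in the downstream one, and 5.58% of all 35116 promoter windows held them. The letters searched for FOXA (TGTTTAC, in 2.98% of all windows), for HNF4 (AAAGTCCA, in 0.98%) and for C/EBP (TTGCNNAA, in 9.05%) were not in these windows of any member. The ONECUT1 window held none of the letters searched and had a GC content of 76.8%, against 58.4% and 58% in the HNF4A windows. A match of letters is a description of the sequence and does not show that a factor binds there.

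Libraries held between 10667343 reads (untreated Hep3B) and 15968317 reads (untreated Huh7), of which the table took 98.6% to 99.2%. Values are given as normalised reads, that is, reads scaled to 10000000 per library, and as log2(normalised reads + 1). The labels call all 3 lines hepatocellular carcinoma cells, and defining hepatocyte markers bore this out in Hep3B and Huh7 only. A list of 42 hepatocyte genes (32 in the table) took 3.21% to 7.65% of the reads in Hep3B and 4.12% to 6.26% in Huh7, but 0.0281% to 0.0478% in MHCC97H. APOC3, FABP1 and GJB1 had 0 reads in all 4 MHCC97H libraries, which allows up to 3 reads in each, and ALB, the gene of serum albumin, had 203 to 834 reads. Cholangiocyte and progenitor markers (8 of 10 in the table) took 0.198% to 0.366% in Hep3B, 0.254% to 0.394% in Huh7 and 0.0917% to 0.104% in MHCC97H. Mesenchymal markers (9 of 13) took 0.256% to 0.629%, 0.656% to 1.41% and 0.978% to 1.85% in the same order. This share leans on FN1, with 20718 to 41640, 92014 to 154099 and 94410 to 241665 reads. VIM went the other way, with 5295 to 28885, 5180 to 13775 and 63 to 116 reads, so the share does not grade a mesenchymal state. Markers of fibroblasts, endothelium and immune cells (5 of 16) took at most 0.0865% of any library. The samples are cultured lines, so these shares describe the RNA of a line and do not count cells of other types. In Huh7, LYZ alone of the last list had 608 to 11996 reads.

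All 8 factors were expressed in Hep3B and Huh7 at 258 reads or more in each library. PROX1, CEBPA and HNF4A were among the genes with the more reads there, without correction for transcript length. In MHCC97H, 6 of the factors had 236 reads or more in each library, while FOXA3 had 25 to 54 reads and ONECUT1 had 8 to 28. PROX1 exceeded 96.5% of all genes in Hep3B, HNF4A 96.7% in Huh7 and HNF4A 78.6% in MHCC97H by mean log2 value. FOXA3 and ONECUT1 exceeded 6.87% and 4.50% of all genes in MHCC97H, against 65.9% and 55.3% in Hep3B.

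**Figure D1:**
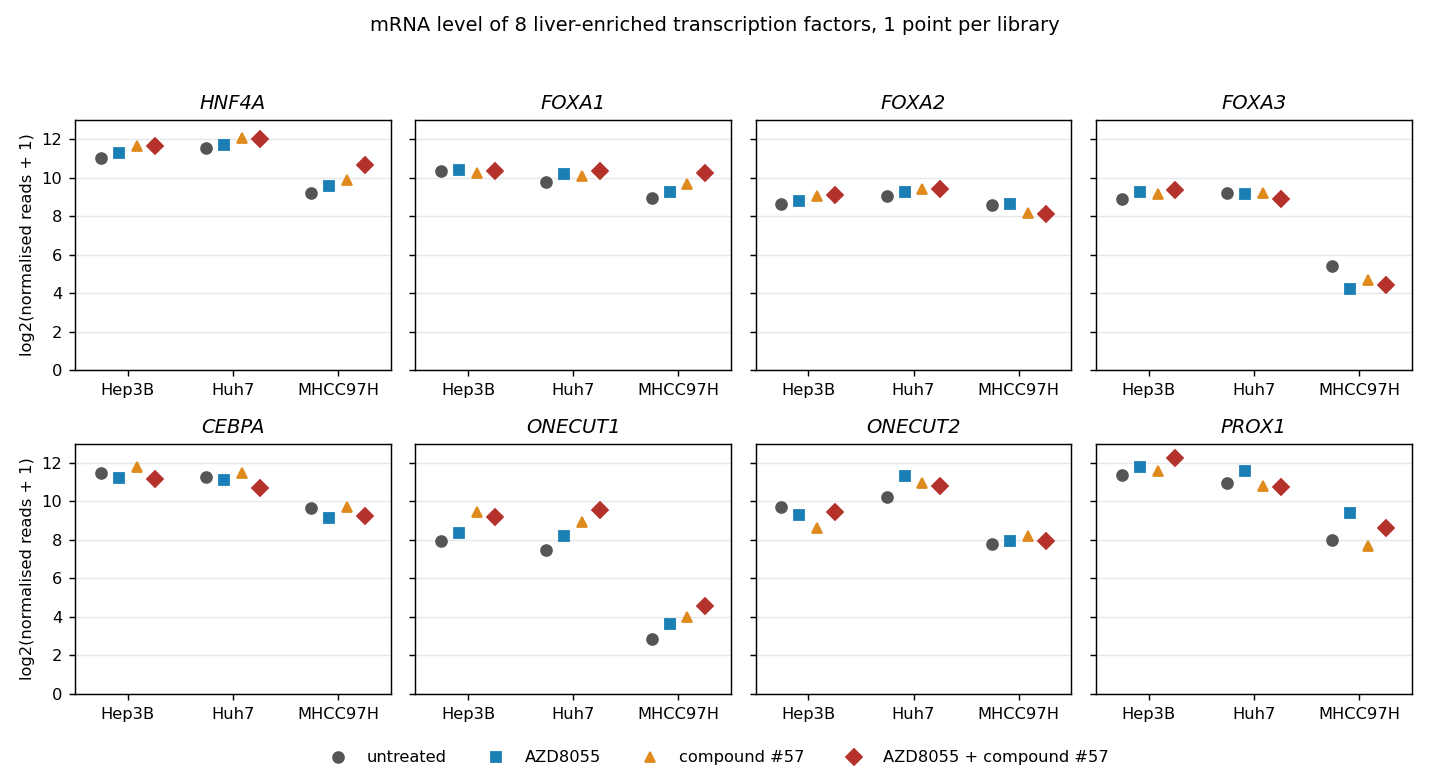
log2(normalised reads + 1) of the 8 factors in the 12 libraries, 1 point per library, with cell lines on the x axis and treatments by colour and shape. FOXA3 and ONECUT1 sit near the bottom in MHCC97H (25 to 54 and 8 to 28 reads), and ONECUT1 is higher in each treated library than in the untreated one of its line.

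Levels were compared between the factors as normalised reads per kilobase of the canonical transcript, as mean ± SD over the 4 libraries of a line, an SD that includes the treatments. Neighbours in the order were said to overlap where the ranges of their 4 libraries did. In Hep3B, CEBPA stood first at 1064 ± 219 and did not overlap with the next, HNF4A at 589 ± 117. PROX1 (416 ± 112) overlapped with HNF4A above it and with FOXA1 (372 ± 16.7) below it. FOXA3 (304 ± 40.5) and FOXA2 (188 ± 28.4) followed without overlap between them, then ONECUT1 (106 ± 49.4), whose highest library (161) lay above the lowest of FOXA2 (154), and ONECUT2 (38.8 ± 11.2). The order in Hep3B thus ran from the metabolic factor and the nuclear receptor down to the ONECUT factors. In Huh7, CEBPA (883 ± 190.1) and HNF4A (795 ± 134) overlapped and stood apart from the rest. FOXA1, FOXA3, PROX1 and FOXA2 formed a middle group from 319 ± 52.2 to 247 ± 26.6 in which each overlapped with its neighbour. ONECUT2 (116 ± 34.9) and ONECUT1 (97.2 ± 56.8) overlapped at the lower end. In MHCC97H, CEBPA (269 ± 49.7), FOXA1 (223 ± 90.1), HNF4A (213 ± 100.4) and FOXA2 (133 ± 23.9) each overlapped with the next, while CEBPA (218 to 316) lay above FOXA2 (110 to 156) in all libraries. Below them came PROX1 (44.9 ± 24.4), ONECUT2 (15.4 ± 1.97) with FOXA3 (13.5 ± 5.59), and ONECUT1 (3.15 ± 1.60).

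The first comparison was between the cell lines. All 8 factors were lower in MHCC97H than in Hep3B and than in Huh7, and 8 of 8 passed the test in both comparisons, where 67.8% of all genes were called for Hep3B against MHCC97H and 70.2% for Huh7 against MHCC97H. The gap was widest for ONECUT1 and FOXA3 and narrowest for FOXA1 and FOXA2. The test was limma, fitted to log2 levels from the 12 libraries together, with treatment and line as terms, adjusted by Benjamini-Hochberg over 11548 genes. A line enters with 4 libraries, 1 per treatment, so its p-value measures the spread that is left after treatment and not the spread between repeated cultures. With so many genes called, a call alone did not set the factors apart, and the sizes are given beside the median of all genes. The median difference of the 8 factors was 1.77 (log2) for Hep3B against MHCC97H and 2.30 for Huh7 against MHCC97H, with 0.13 and 0.023 over all genes.

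ONECUT1 had 242, 325, 700.0 and 585 normalised reads in Hep3B (untreated, AZD8055, compound #57, combination) and 177, 289, 484 and 741 in Huh7. In MHCC97H the values were 6.14, 11.2, 14.9 and 22.6 in the same order, far below the lowest value of the other lines. The limma difference was 4.98 (log2, SE 0.17, adjusted p = 5.76e-09) for Hep3B and 4.78 (SE 0.17, adjusted p = 6.53e-09) for Huh7 over MHCC97H. FOXA3, the forkhead factor that appears last in liver development, had 481, 623, 570.1 and 661 normalised reads in Hep3B, 594, 568, 588 and 474 in Huh7 and 41.5, 17.5, 24.6 and 20.2 in MHCC97H. Its differences were 4.51 and 4.44 (log2, SE 0.23 each, limma adjusted p = 8.61e-08 and 8.27e-08). PROX1 was 3.32 higher in Hep3B and 2.60 higher in Huh7 than in MHCC97H (log2, SE 0.23 each, limma adjusted p = 9.10e-07 and 4.32e-06). These 3 factors thus separated MHCC97H from the other lines without any overlap of the libraries. The same held for CEBPA, HNF4A and ONECUT2. Their highest MHCC97H libraries had 823, 1650.2 and 299 normalised reads, and the lowest libraries of the other lines had 1659, 2077 and 391.

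CEBPA was 1.98 higher in Hep3B and 1.70 higher in Huh7 than in MHCC97H (log2, SE 0.10 each), and HNF4A was 2.94-fold and 3.99-fold higher (SE 0.16 each on the log2 scale). ONECUT2 was 1.29 higher in Hep3B and 2.87 higher in Huh7 (SE 0.26 each). The smallest gaps were those of the forkhead pair, with 0.82 and 0.59 for FOXA1 (SE 0.19 each) and 0.51 and 0.90 for FOXA2 (SE 0.16 each). FOXA1 reached 1207 normalised reads in MHCC97H with the combination, within the range of Huh7 (883 to 1321) and just under that of Hep3B (1231 to 1373). FOXA2 had 384, 396, 291 and 279.7 normalised reads in MHCC97H, which overlapped with 391, 447, 534 and 541 in Hep3B and not with 534, 622, 672 and 682 in Huh7. The FOXA2 call against Hep3B was lost without the compound #57 libraries (limma adjusted p = 0.113) and without the combination libraries (adjusted p = 0.110), and when only Hep3B and MHCC97H were fitted (adjusted p = 0.057). The FOXA1 call against Huh7 was lost without the untreated libraries (limma adjusted p = 0.053) and without the AZD8055 libraries (adjusted p = 0.096).

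Hep3B and Huh7 differed from each other in fewer of the factors. With 55.1% of all genes called, 4 of 8 factors passed the test, 2 of them higher in Hep3B and 2 lower. ONECUT2 showed the widest gap. It had 834, 638, 391 and 689 normalised reads in Hep3B and 1209.9, 2598, 2022 and 1809.5 in Huh7 (untreated, AZD8055, compound #57, combination), and was 1.58 lower in Hep3B (log2, SE 0.26, limma adjusted p = 0.00065). PROX1 was 0.72 higher in Hep3B (SE 0.23, limma adjusted p = 0.024), CEBPA 0.28 higher (SE 0.10, adjusted p = 0.045) and HNF4A 0.44 lower (SE 0.16, adjusted p = 0.039). ONECUT2 alone kept its call when each treatment was left out in turn, and the count of factors called then ranged from 1 to 3.

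The listed hepatocyte genes showed a wider median gap than the factors, though not each of them did. Genes with 0 reads in MHCC97H, such as APOC3, FABP1 and GJB1, are in the table through the other lines. Part of the median gap may thus follow from which genes the table holds, and an action of the factors on these genes was not tested. Of the 32 hepatocyte genes, 31 were higher in Hep3B than in MHCC97H with a median difference of 7.36 (log2), and 30 were higher in Huh7 with a median of 7.55. CYP27A1, an enzyme of bile acid synthesis, had 930 to 1649 reads in MHCC97H and 266 to 1282 in the other lines. Of 27 other hepatic transcription factors in the table (30 listed), 14 were higher and 5 lower in Hep3B than in MHCC97H, and 17 were higher and 5 lower in Huh7, with medians of 0.46 and 1.07, beside 67.8% and 70.2% of all genes called in these comparisons. NR5A2, a nuclear receptor of bile acid and cholesterol genes, had 1 to 13 reads in MHCC97H and 674 to 3085 in the other lines. Of the long RNAs beside the factor genes, 2 of 9 were in the table. LINC00261, next to FOXA2, was 3.80 higher in Hep3B and 4.76 higher in Huh7 than in MHCC97H (log2, SE 0.26 each), wider gaps than those of FOXA2. CEBPA-AS1 was 1.46 and 1.53 higher (SE 0.19 each), close to the gaps of CEBPA. The part of other cell states in these gaps was not tested, and marker lists moved with them. Of 8 cholangiocyte and progenitor markers, 5 were higher and 1 lower than in MHCC97H in both comparisons. Of 9 mesenchymal markers, 1 (VIM) was higher and 6 lower in Hep3B than in MHCC97H, with S100A4 lowest at -7.79 (log2, SE 0.33), and 3 were higher and 4 lower in Huh7.

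**Figure D2:**
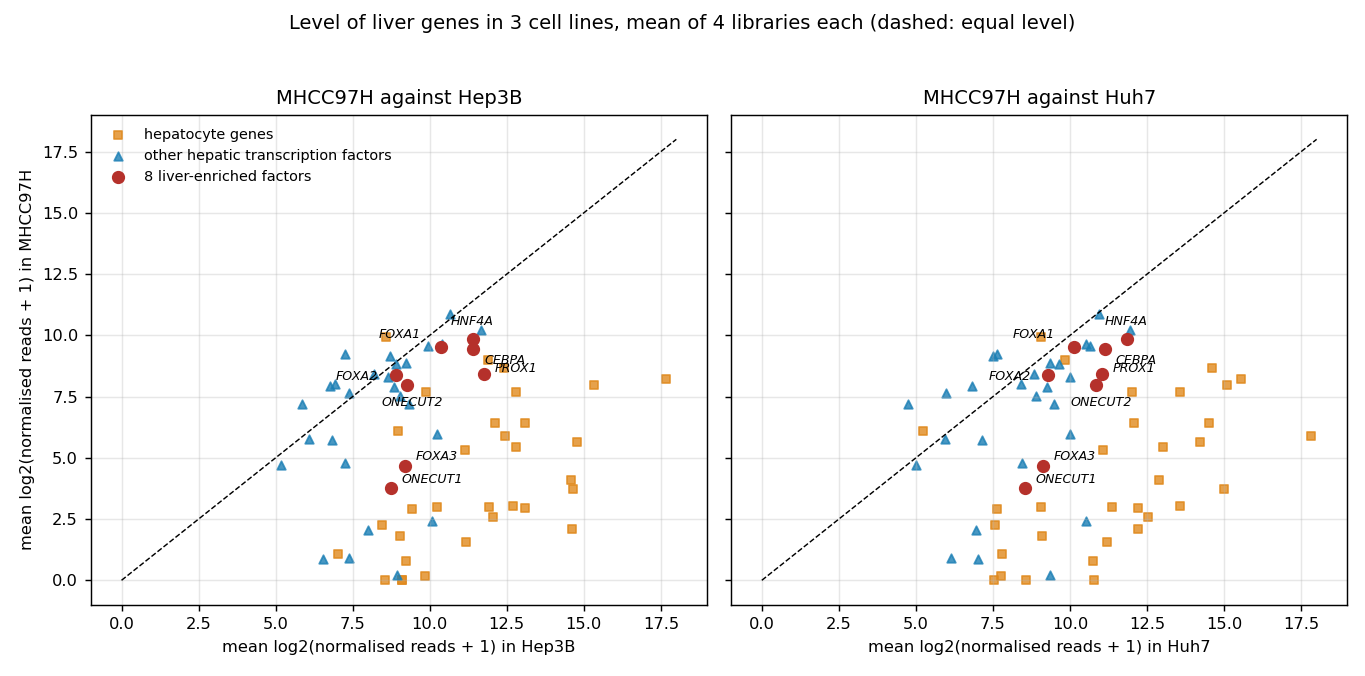
Mean log2(normalised reads + 1) of the 8 factors, the other hepatic transcription factors and the hepatocyte genes in MHCC97H (y axis) against Hep3B (left) or Huh7 (right), means of 4 libraries. Points under the dashed line are lower in MHCC97H, with all 8 factors below it and the hepatocyte genes furthest from it by their medians (7.36 and 7.55 on the log2 scale).

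The second comparison asked how the mTOR inhibitor alone moved the factors. With AZD8055, no factor passed the test across the 3 lines, where 2.96% of all genes were called by limma. An unadjusted p under 0.05 was reached by 3165 of the 11548 genes, 3 of the 8 factors among them. HNF4A, FOXA1, FOXA2, ONECUT1 and PROX1 were higher in 3 of 3 lines and CEBPA was lower in 3 of 3. For FOXA1, FOXA2 and ONECUT1 the counting interval described below lay above 0 in 2 lines only. The rise was 0.060 for FOXA1 in Hep3B and 0.043 for FOXA2 in MHCC97H, and ONECUT1 had 8 and 16 reads in MHCC97H. The share of all genes that moved in 1 direction in the 3 lines was not counted. The median change of the factors was 0.25 (log2), with 0.031 over all genes. PROX1 had the largest value, 0.83 (log2, SE 0.27, limma adjusted p = 0.090), followed by ONECUT1 with 0.63 (SE 0.20, adjusted p = 0.087), while CEBPA had -0.30 (SE 0.12, adjusted p = 0.140).

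PROX1 went from 2652 to 3590.1 normalised reads in Hep3B, from 1959.5 to 3112 in Huh7 and from 252 to 665 in MHCC97H. The log2 changes were 0.44, 0.67 and 1.40, with 95% Clopper-Pearson intervals of the read ratio of 0.37 to 0.51, 0.60 to 0.74 and 1.22 to 1.59. Intervals of this kind cover the counting error of 2 libraries only. They are of the read ratio without the added 1 that the log2 changes include, so the 2 differ somewhat where reads are few. A change of at least 2-fold was seen for 0 of 8 factors in Hep3B, where 4.63% of all genes changed that much. In Huh7 it was 1 of 8, ONECUT2, with 8.41% of all genes. In MHCC97H it was 2 of 8, PROX1 upwards and FOXA3 downwards, with 10.2% of all genes. ONECUT2 was 1.10 higher with AZD8055 in Huh7 (interval 1.02 to 1.19) and 0.39 lower in Hep3B (interval -0.53 to -0.25). FOXA3 in MHCC97H went from 54 to 25 reads, a log2 change of -1.20 (interval -1.99 to -0.53). HNF4A was higher by 0.27 in Hep3B, 0.13 in Huh7 and 0.33 in MHCC97H, and all 3 intervals lay above 0.

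The third comparison was compound #57 alone against untreated cells. ONECUT1 and HNF4A were the factors with the largest values and were higher in 3 of 3 lines, but no factor passed the test. The background was also low, since limma called 0.00866% of all genes, a single gene, the apoptosis gene BMF (1.70 on the log2 scale, SE 0.15, adjusted p = 0.0051, higher in 3 of 3 lines). An unadjusted p under 0.05 was reached by 2501 genes, 2 of the 8 factors among them, and voom on the reads called 90 genes. ONECUT1 had a change of 1.38 (log2, SE 0.20, limma adjusted p = 0.078) and HNF4A one of 0.60 (SE 0.18, adjusted p = 0.128). Without MHCC97H, the line with 24 h of exposure, both were called (1.49 with adjusted p = 0.027 and 0.57 with adjusted p = 0.046 in limma). More genes than BMF were thus called in that fit, so the share of 0.00866% is not its background. The range of genes called over the fits with a line left out is given further below. These calls are not read as particular to ONECUT1 and HNF4A. With voom, ONECUT1 was called (1.49, adjusted p = 0.022).

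ONECUT1 went from 242 to 700.0 normalised reads in Hep3B, from 177 to 484 in Huh7 and from 6.14 to 14.9 in MHCC97H. The log2 changes of 1.53, 1.44 and 1.16 were alike in size, although the last rests on 8 and 17 reads and its interval reached from -0.0097 to 2.70. HNF4A went from 2077 to 3185, from 3024 to 4319 and from 595 to 956 normalised reads, or by 0.62, 0.51 and 0.68 on the log2 scale with all 3 intervals above 0. A change of at least 2-fold was found for 2 of 8 factors in Hep3B (12.7% of all genes), for 1 of 8 in Huh7 (5.95%) and for 1 of 8 in MHCC97H (3.96%). ONECUT1 was among them in each line, in MHCC97H with the interval that includes 0. The other one in Hep3B was ONECUT2, which was lower by 1.09 there (interval -1.24 to -0.94) and higher by 0.74 in Huh7 and 0.42 in MHCC97H. CEBPA had changes of 0.31 in Hep3B and 0.21 in Huh7, both with intervals above 0, and of 0.045 in MHCC97H (interval -0.084 to 0.17).

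The fourth comparison was the combination against untreated cells, where the most factors passed the test. ONECUT1, HNF4A and FOXA1 rose and CEBPA fell. Thus 4 of 8 factors passed the test, where 36% of all genes were called, so that a call alone did not set the factors apart. The median change of the factors was 0.29 (log2), with 0.086 over all genes. FOXA2, FOXA3, ONECUT2 and PROX1 did not pass, with values of 0.12, -0.29, 0.14 and 0.45.

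ONECUT1 rose by 1.69 on the log2 scale, or 3.22-fold (SE 0.20, limma adjusted p = 0.0018). Within the lines it went from 242 to 585 normalised reads in Hep3B, from 177 to 741 in Huh7 and from 6.14 to 22.6 in MHCC97H. The log2 changes were 1.27 (interval 1.07 to 1.48), 2.06 (1.87 to 2.26) and 1.73 (0.71 to 3.23), so that each treated library lay above the untreated one of its line. HNF4A rose by 0.84, or 1.79-fold (SE 0.18, limma adjusted p = 0.0090). It went from 2077 to 3182 normalised reads in Hep3B, from 3024 to 4111 in Huh7 and from 595 to 1650.2 in MHCC97H. The increase in MHCC97H (1.47, interval 1.35 to 1.59) was larger than those in Hep3B (0.61) and Huh7 (0.44), a difference that was not tested. The HNF4A level of MHCC97H under the combination stayed below the untreated level of Hep3B.

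FOXA1 rose by 0.62 (SE 0.22, limma adjusted p = 0.047), and this rested on Huh7 and MHCC97H. FOXA1 went from 883 to 1321 normalised reads in Huh7 (0.58, interval 0.48 to 0.69), from 488 to 1207 in MHCC97H (1.30, interval 1.17 to 1.44) and from 1317 to 1297 in Hep3B (-0.022, interval -0.13 to 0.083). With the combination, the 3 lines thus had nearly the same FOXA1 level. The call was lost without MHCC97H (0.28, limma adjusted p = 0.217), without Huh7 (0.64, adjusted p = 0.217) and with libraries centred on their medians (0.55, adjusted p = 0.066). CEBPA fell by 0.42 on the log2 scale (SE 0.12, limma adjusted p = 0.024) and was lower in 3 of 3 lines. It went from 2857 to 2310.5 normalised reads in Hep3B, from 2455 to 1659 in Huh7 and from 798 to 614 in MHCC97H, with all 3 intervals below 0. The call was lost when any line was left out (limma adjusted p from 0.050 to 0.186). Without Huh7 no factor was called, with limma adjusted p of 0.067 for ONECUT1 and 0.074 for HNF4A, and without MHCC97H FOXA2 was called with 0.41 (adjusted p = 0.048). Few of all genes were called without Huh7, and the counts with a line left out ranged widely, as given further below. Calls lost or gained in these fits are therefore not read as particular to a factor.

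**Figure D3:**
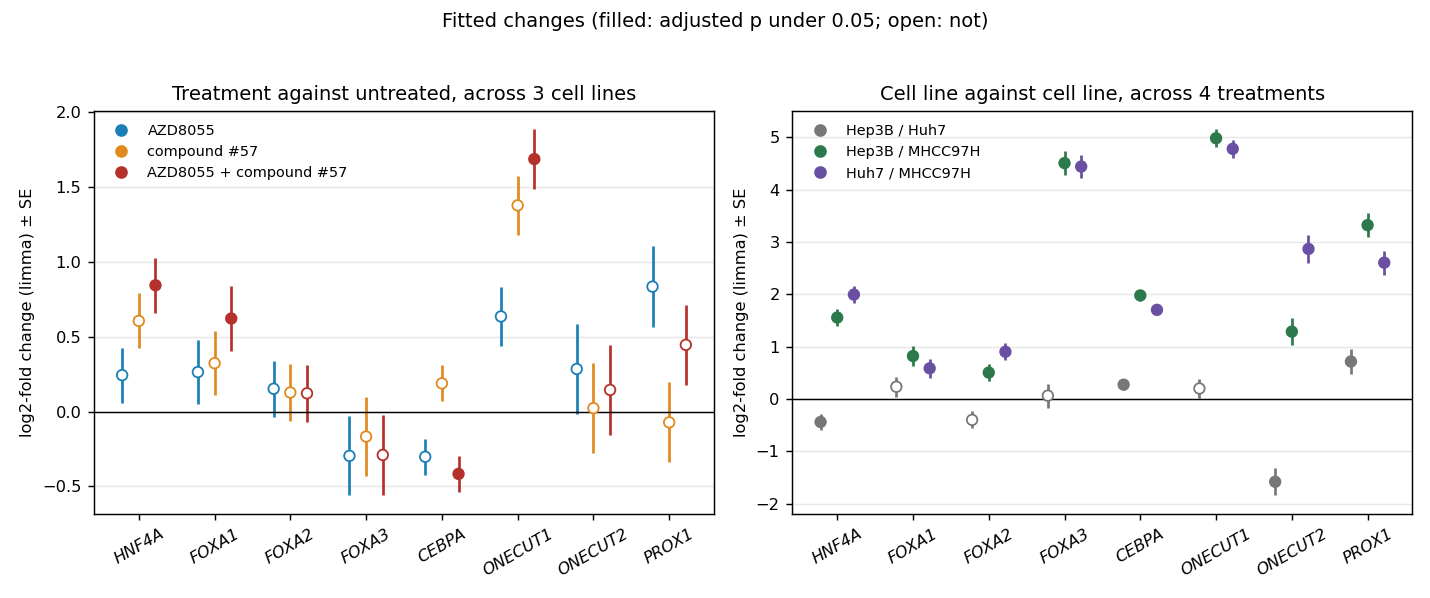
Fitted log2-fold changes ± SE of the 8 factors by limma, for each treatment against untreated across the lines (left) and between the lines across the treatments (right). Filled points have an adjusted p under 0.05, which on the left holds for ONECUT1, HNF4A, FOXA1 and CEBPA with the combination alone.

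Within single lines, at least 2-fold changes with the combination were found for 1 of 8 factors in Hep3B (17.6% of all genes), 1 of 8 in Huh7 (18.5%) and 4 of 8 in MHCC97H (16.1%). ONECUT1 was higher in each line, HNF4A and FOXA1 were higher in MHCC97H, and FOXA3 was lower there, from 54 to 25 reads. FOXA2, FOXA3, ONECUT2 and PROX1 did not move in 1 direction in the 3 lines. FOXA2 was higher in Hep3B (0.47, interval 0.29 to 0.65) and Huh7 (0.35, interval 0.21 to 0.49) and lower in MHCC97H (-0.46, interval -0.66 to -0.26). PROX1 went from 2652 to 4817 normalised reads in Hep3B and from 252 to 396 in MHCC97H but from 1959.5 to 1733 in Huh7, or by 0.86, 0.65 and -0.18.

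**Figure D4:**
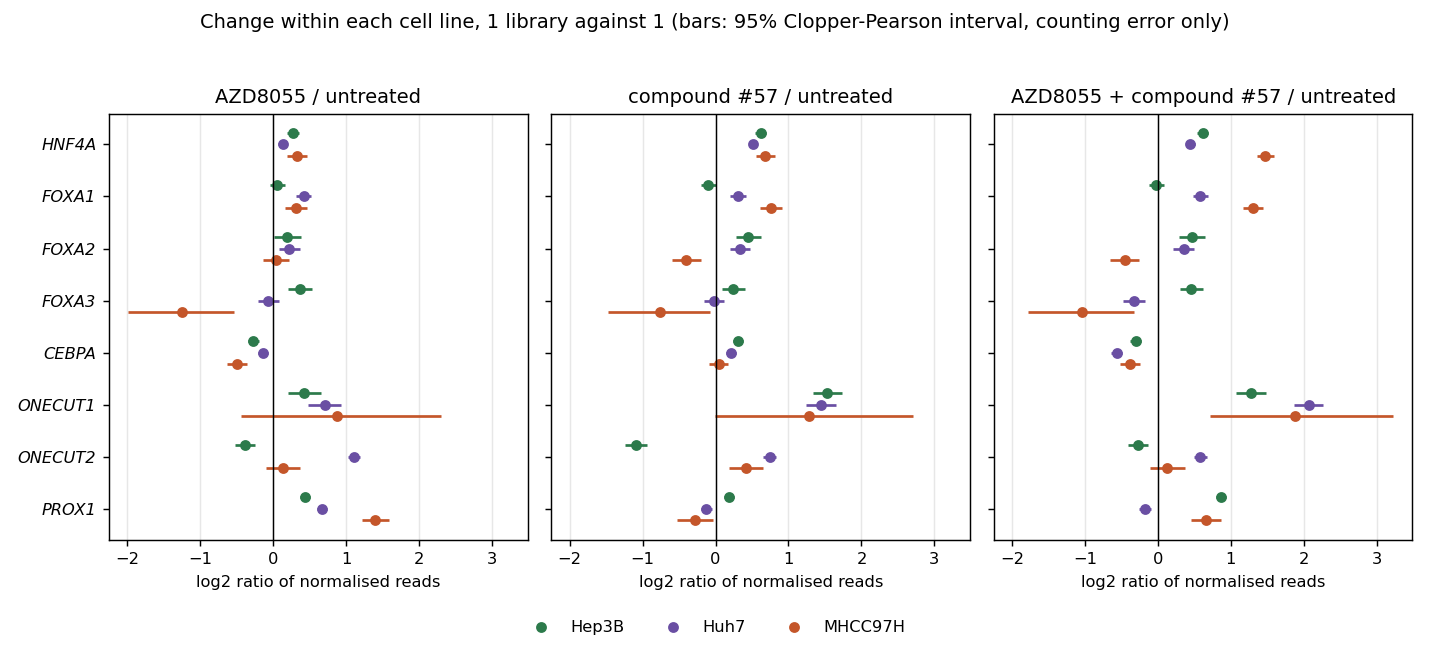
log2 ratio of normalised reads within each line for AZD8055, compound #57 and the combination against untreated, without the added 1, with 95% Clopper-Pearson intervals that cover counting error only. ONECUT1 and HNF4A lie to the right of 0 in all panels, CEBPA lies to the left with AZD8055 and the combination, and ONECUT2 lies on opposite sides in Hep3B and Huh7.

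The combination was also set against each single drug. These comparisons share the combination libraries with the one above and with each other. Against AZD8055, limma called 0% of all genes and 0 of 8 factors. The smallest adjusted p over all genes was 0.121, 1673 genes and 2 factors had an unadjusted p under 0.05, and voom called 0 genes. ONECUT1 was 1.05 higher (log2, SE 0.20, limma adjusted p = 0.145) and HNF4A 0.60 higher (SE 0.18, adjusted p = 0.233), both in 3 of 3 lines. PROX1 was higher with the combination than with AZD8055 in Hep3B (0.42) and lower in Huh7 (-0.84) and MHCC97H (-0.75), and none of the 3 intervals included 0.

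Against compound #57, limma called 4.18% of all genes and 1 of 8 factors, CEBPA. It was 0.60 lower with the combination (SE 0.12, limma adjusted p = 0.032), by 0.61 in Hep3B, 0.78 in Huh7 and 0.42 in MHCC97H. CEBPA was not called when any line was left out or when the libraries of these treatments were fitted alone. HNF4A differed little from compound #57 alone in Hep3B (-0.0015, interval -0.062 to 0.059) and Huh7 (-0.071, interval -0.13 to -0.016) but was 0.79 higher in MHCC97H (interval 0.68 to 0.89).

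The log2 change of the combination was set beside the sum of those of the single drugs, as a description without a test. The dose of compound #57 as a single drug is not given in the sources used here. Whether the sum is of the same doses as the combination (5 µM) is thus not known. For ONECUT1 the combination fell short of the sum by 0.69 in Hep3B, 0.087 in Huh7 and 0.20 in MHCC97H. HNF4A was 0.27 and 0.20 below the sum in Hep3B and Huh7 and 0.46 above it in MHCC97H. CEBPA was 0.34 and 0.64 below it in Hep3B and Huh7 and 0.071 above it in MHCC97H. ONECUT2 was 1.20 above the sum in Hep3B and 1.26 below it in Huh7, and with the combination it lay closer to the untreated level than with either single drug in both lines.

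Other genes of the hepatic network were read from the same fits. With the combination, 6 of 27 other hepatic transcription factors rose and 4 fell, beside 36% of all genes called in this comparison. NR5A2 rose by 1.84 (log2, SE 0.33, limma adjusted p = 0.0045), the endoderm factor GATA6 by 1.41 (SE 0.33, adjusted p = 0.012) and CREB3L3, a factor of fasting metabolism, by 1.39 (SE 0.47, adjusted p = 0.042). In MHCC97H, NR5A2 rested on 1 and 13 reads. CREB3L3 had 601 and 466 reads in Huh7, in libraries of 15968317 and 11627361 reads, so its rise rested on Hep3B and MHCC97H. The median of the list was -0.089, with 0.086 over all genes. Of the 32 hepatocyte genes, 5 rose and 3 fell, with a median of 0.23, also beside 36% of all genes. The fibrinogen chains FGB and FGG rose by 2.28 and 2.07 (SE 0.57 and 0.53), and VTN, the gene of vitronectin, rose by 1.61 (SE 0.30). Among coregulators of these factors (16 of 18 in the table), 3 rose and 2 fell, and none of these list counts is read as particular to its list. The coactivator PPARGC1B fell by 2.83 (SE 0.42, limma adjusted p = 0.0030), and TLE1, a corepressor partner of FOXA factors, rose by 0.87 (SE 0.19). TLE3 had -0.59 (SE 0.23, adjusted p = 0.066). LINC00261 and CEBPA-AS1 had 0.20 and 0.10 and were not called.

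Markers of other cell states moved in the same libraries. With the combination, where 36% of all genes were called, 4 of 9 mesenchymal markers rose and 2 fell (CDH2 by 2.17 and VIM by 1.51 upwards, S100A4 by -1.73), 3 of 8 cholangiocyte and progenitor markers rose and 1 fell (CD24 rose by 1.02), and of the 5 fibroblast, endothelial and immune markers COL1A1 rose by 2.15 and none fell. Their part in the changes of the factors was not tested. With AZD8055, 0 of 27 hepatic transcription factors and 0 of 32 hepatocyte genes were called, with medians of -0.064 and -0.11. With compound #57, none of these lists had a call, yet the median of the hepatocyte genes was 0.83, with 0.047 over all genes. Within Hep3B, Huh7 and MHCC97H, that median was 1.02, 0.63 and 0.55, and 16, 10 and 10 of the 32 genes were at least 2-fold higher. Over all 11548 genes, 1035, 511 and 360 were at least 2-fold higher in the same order. The reads in MHCC97H were few for some hepatocyte genes, as for APOA2 (3 untreated, 8 with compound #57), and more for others, as for FGB (249 and 1167). FGB had 2.31 (SE 0.57, limma adjusted p = 0.101) and FGG 2.30 (SE 0.53, adjusted p = 0.091) with compound #57.

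The genes most like each factor were sought by Pearson's r of log2 values over the 12 libraries, among 11239 genes with a mean of at least 50 reads. The libraries share cell lines and untreated controls, so r is given as a description. Over all libraries the likeness followed the cell lines, as for FOXA3 with SDC2 (r = 0.998), ONECUT1 with MLLT4 (0.992), PROX1 with SKI (0.987), CEBPA with OXNAD1 (0.983) and HNF4A with C1orf115 (0.980). ONECUT2 was nearest to ZC3H13 (0.970), FOXA2 to GFOD2 (0.965) and FOXA1 to STARD13 (0.922). After each line was centred on its mean, ONECUT1 was nearest to TXNRD3 (0.984), HNF4A to CYP1B1 (0.965), CEBPA to CENPI (0.961), PROX1 to BAHCC1 (0.959), FOXA1 again to STARD13 (0.946), FOXA2 to F2RL1 (0.942), ONECUT2 to TANC1 (0.927) and FOXA3 to POC1A (0.879). Among the factors, HNF4A moved most closely with ONECUT1 (0.85) and FOXA1 (0.83) on this centred scale, while CEBPA had -0.15 with HNF4A.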

How the data were processed

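RNA of 12 samples (3 HCC cell lines, 4 treatments) was sequenced from polyA+ stranded libraries, per the labels, and was aligned to hg38 by the authors. The deposited values are log2 values per gene, and the aligner, the counting and the normalization are not given in the sources used here. From the values, each was log2(x + 1) + 0.001 with x the reads scaled to 10000000 per library. With a tolerance of 0.02 reads, 100% of the values gave whole reads, and 0.001 was read as 0 reads. Gene names were not altered. Dates stood in place of 18 names and 4 names occurred on 2 lines each, and no member was affected. No column was left out.

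Treatments and lines were compared with limma 3.58.1 on log2(x + 1) in all 12 libraries, with terms for treatment and line (6 residual degrees of freedom, eBayes with trend), adjusted by Benjamini-Hochberg over 11548 genes with a threshold of 0.05. Libraries are paired by the line itself. Within a line, 1 library stood against 1, so only a log2 change and the 95% Clopper-Pearson interval of the read ratio were given. The printed log2 change is that of log2(x + 1), while the interval is without the added 1. The p-values measure only the spread between these libraries.

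The members and 7 gene lists were chosen with earlier results of these data known. All 8 members are named, with the 3 genes of a list that had the largest limma change in the contrast described and the 2 genes most like each member, of which 1 is printed. Other genes were named after their values were seen, and some genes that the rule named are not reported here. Alternatives were a pseudocount of 10, a filter that kept the 75% most abundant genes, libraries centred on their medians (shifts up to 0.097 on the log2 scale), voom on whole reads, only the libraries compared, no cell line term, and each line or treatment left out. The scripts were tested on simulated data. Transcript lengths came from GENCODE 44, with canonical transcripts only, and promoters from RefSeq (GRCh38.p14). The scripts ran under R 4.3.3 and Python 3.11.15, with scipy 1.17.1 for intervals, pandas 2.3.3 and numpy 2.4.6 for tables, and matplotlib 3.10.9 for plots.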

Additional observations from a re-analysis of the deposited data

Results flagged for a closer look

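In 16 of the 40 combinations of a factor and a treatment comparison, the factor moved in opposite directions in a pair of lines, with both intervals on their side of 0. The pair furthest apart is given. The share of all genes that moved this way was not counted, so the number is not read as particular to the factors. The intervals cover counting error only. Each line has 1 library per treatment, the lines differ in exposure time in part, and the differences were not tested.

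With AZD8055, FOXA3 differed by 1.57 on the log2 scale between Hep3B (0.37) and MHCC97H (-1.20), where it had 54 and 25 reads. ONECUT2 differed by 1.49 between Huh7 (1.10) and Hep3B (-0.39). With compound #57, the ONECUT2 difference between the same lines was 1.83 (0.74 and -1.09), the largest of the 16. FOXA3 differed by 0.977 between Hep3B (0.24) and MHCC97H (-0.73), FOXA2 by 0.845 (0.45 and -0.40) and PROX1 by 0.470 (0.19 and -0.28). With the combination, FOXA3 differed by 1.46 between Hep3B (0.46) and MHCC97H (from 54 to 25 reads) and FOXA2 by 0.923 (0.47 and -0.46). ONECUT2 differed by 0.856 between Huh7 (0.58) and Hep3B (-0.28), and PROX1 by 1.04 between Hep3B (0.86) and Huh7 (-0.18). Against AZD8055, the combination had PROX1 higher in Hep3B (0.42) and lower in Huh7 (-0.84), a difference of 1.27, and FOXA2 higher in Hep3B (0.27) and lower in MHCC97H (-0.50), a difference of 0.773. Against compound #57, ONECUT2 differed by 1.11 between Hep3B (0.82) and MHCC97H (-0.29), ONECUT1 by 0.874 between Huh7 (0.62) and Hep3B (-0.26), HNF4A by 0.857 between MHCC97H (0.79) and Huh7 (-0.071) and FOXA3 by 0.524 between Hep3B (0.21) and Huh7 (-0.31). The comparisons share the untreated or combination library of each line, so the cases of one factor are not independent of each other.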

How the results depend on the processing

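Without a cell line term, no gene and no factor was called with AZD8055, compound #57 or the combination against untreated, or with the combination against compound #57 (0 in each), where the lines' own differences enter the error. With only the libraries compared, 2 genes were called for AZD8055, 0 for compound #57, 1889 for the combination (1 factor, ONECUT1) and 265 for the combination against compound #57 (0 factors). With voom, compound #57 had 90 genes called and 1 factor, ONECUT1. When each line was left out in turn, genes called ranged from 0 to 109 for AZD8055 (342 with all lines), from 0 to 778 for compound #57, from 11 (without Huh7) to 3778 for the combination (4154), from 0 to 331 for the combination against compound #57 (483) and from 0 to 3 for the combination against AZD8055 (ATP2B2, ITGA2 and TACC1 without MHCC97H). Factors called ranged from 0 to 2 for compound #57, from 0 to 3 for the combination, from 0 to 0 for the combination against compound #57 and, with each treatment left out, from 1 to 3 for Hep3B against Huh7. The line is the replicate here, so these fits rest on 2 lines, and the cause of the shifts was not tested.

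The direction turned for factors that were not called. FOXA3 had 0.038 with AZD8055 and 0.040 with compound #57 in voom, and ONECUT2 had -0.044 with compound #57 in centred libraries and -0.0080 in voom. With a line left out, log2 changes ranged for AZD8055 from -0.63 to 0.15 (FOXA3) and -0.13 to 0.62 (ONECUT2), for compound #57 from -0.034 to 0.39 (FOXA2), -0.37 to 0.12 (FOXA3), -0.34 to 0.58 (ONECUT2) and -0.20 to 0.032 (PROX1), and for the combination from -0.052 to 0.41 (FOXA2), -0.66 to 0.066 (FOXA3) and -0.074 to 0.35 (ONECUT2). FOXA3 in Hep3B against Huh7 ranged from -0.073 to 0.19 with a treatment left out. CEBPA lost its call in Hep3B against Huh7 in centred libraries (limma adjusted p = 0.101). The line is also the pairing, and dropping the block by line ended all calls between treatments.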

Other observations

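In MHCC97H, CREB3L3 (160 untreated reads, 429 with AZD8055, 282 with compound #57 and 621 with the combination) and GATA6 (320, 364, 379 and 544) had reads in every library, and KLF15, a factor of liver metabolism, had 0, 1, 1 and 3. In Hep3B, GATA6 had 200, 262, 961 and 1299 reads in the same order. NR1H4, the bile acid receptor, had 430 reads in untreated Hep3B and 121, 363 and 68 reads with the treatments, and 1092, 202, 614 and 325 in Huh7. Its limma change was -1.15 with AZD8055 (SE 0.54, adjusted p = 0.201) and -1.16 with the combination (adjusted p = 0.120), so it was not called.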
